A study of Mus musculus with 39 samples.

Results

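Total DNA methylation was compared between retinoic acid (RA)-treated and naive mouse embryonic stem cells (mESC) that lack p53, the tumour suppressor and transcriptional regulator encoded by Trp53. The comparison rests on 7 of the 39 libraries of the series: 4 of RA-treated and 3 of naive p53-null mESC, all made by reduced representation bisulfite sequencing (RRBS). RRBS reads CpG-rich MspI fragments and counts 5-methylcytosine and 5-hydroxymethylcytosine together, which is what total methylation means here. Members are all 330387 CpGs of the deposited table, each with 1 value for RA-treated and 1 for naive p53-null cells, and the measure is the RA-treated minus the naive value in percentage points.

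The p53-null lines (p53-/-) came from matings of heterozygous mice of the 129s-Trp53tm2Tyj/J strain, as morulas of embryonic day 2.5 placed on irradiated MEF feeder cells in 2i medium. RA-treated cells had their feeders depleted, were seeded on gelatin and received 1 uM RA for 4 days. Naive cells were kept in 2i+LIF; 2i blocks MEK and GSK3, and LIF is a cytokine that sustains self-renewal. The protocol describes feeder removal for differentiation experiments, and the labels do not say whether naive cells were also depleted before DNA extraction. How many lines or clones each group holds is not stated. The series asks how p53 bears on DNA methylation in naive mESC, and its other libraries cover oxidative RRBS and adult liver. WT mESC under the same 2 conditions, 5 RRBS libraries each, serve only to show where p53-null cells differ.

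In mESC, DNMT3A and DNMT3B place methyl groups on unmethylated CpGs and DNMT1 copies them at replication, while TET enzymes oxidise them. Culture in 2i is known to lower methylation across the genome, and leaving the naive state is known to restore it. CpG islands, the CpG-dense stretches at many promoters, mostly stay unmethylated, whereas isolated CpGs far from islands are mostly methylated in differentiated cells.

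Each group has a single pooled value per CpG, with no reads per CpG. Depth is therefore unknown, no difference could be set against the spread between libraries, and no value below has a test. CpGs that differ by at least 25 points are described as gained or lost, and this is a threshold of size, not of significance. The spread over the 20 chromosomes with at least 1000 CpGs is given in places; it describes the genome of the pooled cells, not replicates.

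RA-treated p53-null cells had a mean total methylation of 15.1%, against 12.6% in naive p53-null cells, or 2.49 points more. WT cells had 16.3% after RA and 9.77% before it. The p53-null net value was the balance of movements in both directions. RA-treated cells were higher at 117316 CpGs (35.5%), lower at 58553 (17.7%) and equal at 154518 (46.8%), of which 147304 were listed at 0 in both states. Averaged over all CpGs, the increases came to 3.77 points and the decreases to -1.29 points, so 2.93 points went up for each point that went down. The same ratio was 16.5 in WT cells.

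Gains of at least 25 points were found at 14166 CpGs (4.29% of all), and losses of at least 25 points at 2854 (0.864%). At 10 points the counts were 46536 (14.1%) and 14741 (4.46%), and at 50 points 685 (0.207%) and 71 (0.0215%). The 25-point limit cuts through a smooth slope, with 1323 CpGs at exactly 25 points and 1367 at 24 points on the side of gains, and 324 at -25 and 405 at -24 points on the side of losses. For each lost CpG there were 4.96 gained CpGs in p53-null cells. In WT cells 38610 CpGs (11.7%) gained and 218 (0.066%) lost as much, 177.1 gained for each lost.

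The levels had a narrower spread after RA, mainly through fewer low levels. To look at this without choosing CpGs by a p53-null value, the 79751 CpGs that averaged at least 20% over both WT columns were taken. Their median was 56% in RA-treated and 49% in naive p53-null cells. Their SD over CpGs was 17.4 points in RA-treated and 22.6 points in naive cells, and the middle 50% of CpGs lay between 43% and 69% in RA-treated cells, against 31% and 66% in naive cells. CpGs under 20% made up 1.76% of this set in RA-treated and 12.3% in naive cells. At the upper end little differed, with 8.06% of the set at 80% or more in RA-treated cells and 8.76% in naive cells. WT cells also had the narrower spread after RA, with an SD of 16.8 points against 19.9 in the naive state, and 0.251% of the set under 20% after RA against 21.2%. They had 13.8% of the set at 80% or more after RA and 2.17% in the naive state. The WT columns chose this set, so their levels in it are given only beside the p53-null ones.

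**Figure D1:**
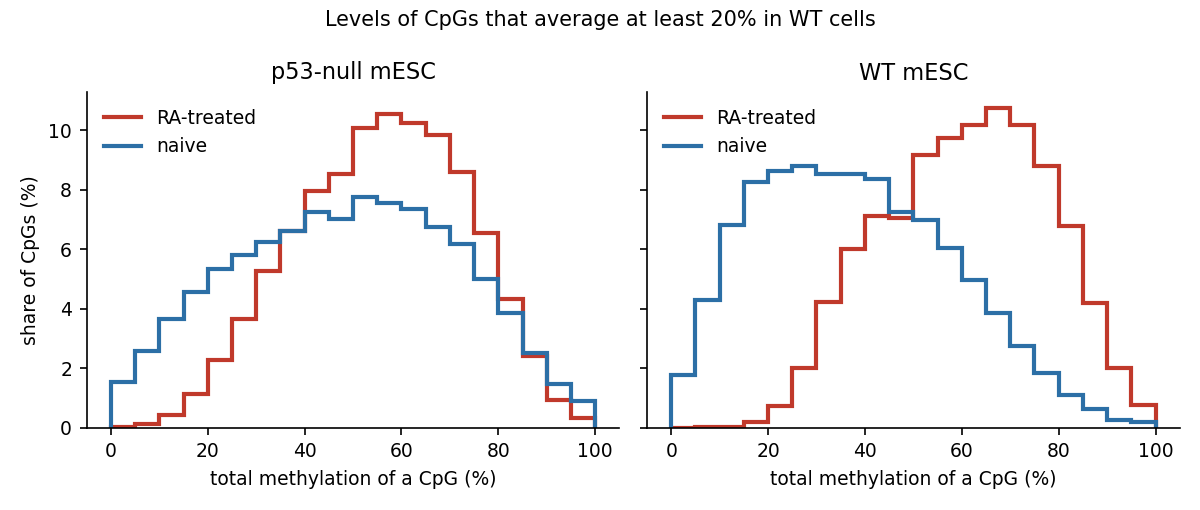
Share of CpGs (%, vertical axis) by total methylation (%, horizontal axis, bins of 5 points) in RA-treated (red) and naive (blue) cells, for the 79751 CpGs that average at least 20% in WT cells; p53-null mESC on the left, WT on the right. In p53-null cells the RA curve is narrower than the naive one at its lower end and close to it above 80%, while in WT cells the whole RA curve lies to the right.

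With classes set by the naive p53-null level, the sign of the mean change went with the starting level. CpGs at 20% to 40% in naive p53-null cells had the largest mean gain: these 21365 CpGs averaged 43.8% in RA-treated cells and 29.5% in naive cells, 14.3 points apart, and 24.9% of them gained at least 25 points. The 26601 CpGs at 5% to 20% averaged 19.9% and 10.2%, 9.69 points apart. At 40% to 60% there were 23791 CpGs, with means of 56.7% in RA-treated and 49.6% in naive cells, 7.15 points apart. Above 60% the sign turned. The 20189 CpGs at 60% to 80% averaged 65.7% in RA-treated and 68.7% in naive cells (-2.97 points), and the 6987 CpGs at 80% or more averaged 73.3% and 86.6% (-13.3 points). In this top class 18.03% lost at least 25 points. The sign held on 20 of 20 chromosomes in each of these 5 classes.

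The naive value is itself a term of this difference, so chance error in it places CpGs in a class and moves their difference the opposite way. Classes set by WT levels avoid this, because no WT value enters the p53-null difference. By the naive WT level the largest mean gain was in the class of 5% to 20%, where p53-null cells averaged 26.6% after RA and 15.9% in the naive state, 10.6 points apart. At 20% to 40% in naive WT cells, p53-null cells averaged 50.9% after RA and 41.7% in the naive state, 9.19 points apart. At 40% to 60% the means were 63.1% and 60.2%, 2.99 points apart. CpGs at 60% to 80% averaged 71.7% in RA-treated and 73.4% in naive p53-null cells (-1.78 points, lower on 19 of 20 chromosomes), and CpGs at 80% or more averaged 78.2% and 84.0% (-5.82 points, lower on 20 of 20). The lower means at the top were not found with every way of forming classes. By the RA-treated WT level, RA-treated p53-null cells had the higher mean in every class, by 6.92 points at 60% to 80% and 5.26 points at 80% or more, on 20 of 20 chromosomes each. By the mean of both WT levels the differences were 1.91 points at 60% to 80% and -2.31 points at 80% or more, and the largest was 12.1 points at 20% to 40%. At 60% to 80% the difference was 1.97 points by the other CpGs of the same 200 bp tile, and 1.24 points by the mean of both p53-null columns. The class of 5% to 20%, at 9.69 points by the naive p53-null level, had 3.81 points by the RA-treated WT level.

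WT cells had larger gains than p53-null cells in the classes under 80% of the naive WT level. At 40% to 60% in naive WT cells the WT mean was 67.7% after RA and 48.8% before it, 18.8 points apart, where p53-null cells differed by 2.99 points. At 60% to 80% WT cells averaged 76.0% and 67.4%, 8.55 points apart, where p53-null cells had -1.78. At 80% or more both were lower after RA, by -5.82 points in p53-null and -3.96 points in WT cells. The WT values are the ones that share their class variable here, which lowers them at the high end. Chance error in the naive WT value likewise raises the WT change in the low classes. Under 5% the larger gain was that of WT mESC by the naive WT level, 1.42 against 0.849 points. By the naive p53-null level, which favours the p53-null value there, WT mESC had the smaller gain, 0.889 against 1.04 points. For 5% to 20% the p53-null change minus the WT change was -7.98 points by the naive WT level and -5.06 by the naive p53-null level. By 10-point classes of the naive WT level, the p53-null change was largest at 10% to 20%, 12.3 points, and was below 0 in every class from 60% upward. In WT cells it was largest at 20% to 30%, 26.7 points, and was below 0 only from 80% upward.

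**Figure D2:**
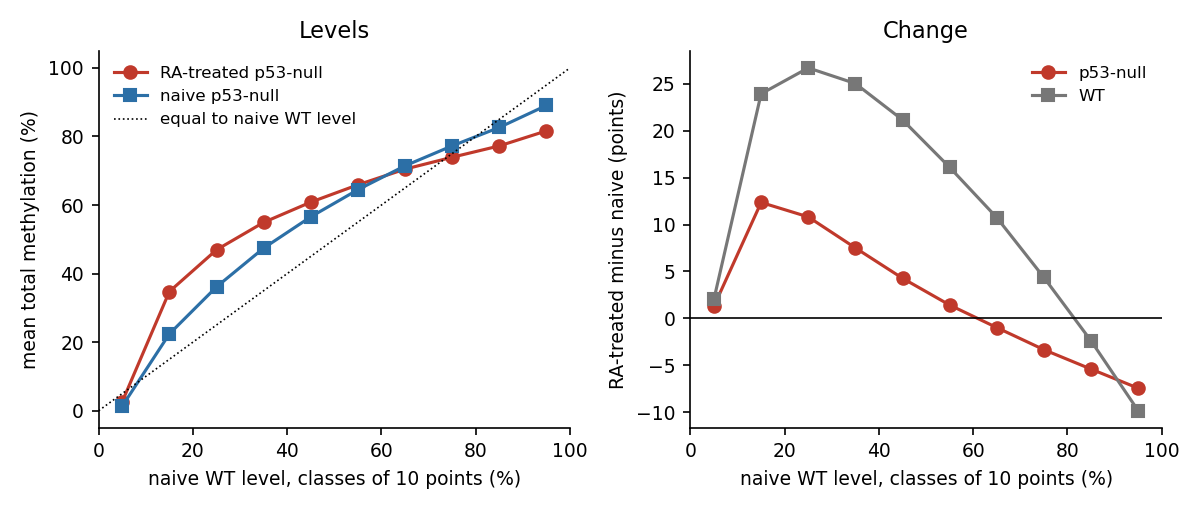
Left, mean total methylation (%) of RA-treated (red circles) and naive (blue squares) p53-null cells by the naive WT level of the same CpGs (%, classes of 10 points, plotted at their centres). Right, RA-treated minus naive (points) for p53-null (red) and WT (grey) cells; the p53-null line crosses 0 between the 50% to 60% and the 60% to 70% class, where its values are 1.43 and -0.970 points.

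Counted CpG by CpG, 76.3% stayed in their class of naive p53-null level (limits 5, 20, 40, 60 and 80%), 17.2% were in a higher class after RA and 6.44% in a lower one. Of the CpGs under 5% in naive cells, 91.9% were still under 5% after RA, and 1.08% were at 20% to 40%. Of these CpGs 34 were at 60% to 80% after RA and 2 at 80% or more. At the high end the members differed between states. There were 6426 CpGs at 80% or more in RA-treated and 6987 in naive cells, but 2343 were there in both states. Of the naive ones, 52.5% were at 60% to 80% after RA and 13.1% at 40% to 60%. Of the RA-treated ones, 2864 had been at 60% to 80% in naive cells. The p53-null values set these classes, so chance error in them also carries CpGs across a limit in both directions. With depth unknown, its part in this turnover cannot be told, and the turnover in WT cells was not computed.

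Fewer CpGs moved in CpG-dense tiles, where the starting level was also lower. The number of measured CpGs in each of 120722 tiles of 200 bp stood for density. In tiles with 9 or more CpGs, the sequence most like a CpG island, 90638 CpGs averaged 0.498% in RA-treated and 0.400% in naive p53-null cells. There 23 CpGs gained (0.0254%) and 2 lost (0.00221%), against 4.29% and 0.864% of all CpGs. In tiles with 5 to 8 CpGs the means were 2.16% and 1.44%, 0.723 points apart, and in tiles with 3 to 4 CpGs 13.1% and 9.55%, 3.53 points apart. Tiles with 2 CpGs had the largest mean difference, 6.07 points, at 30.01% in RA-treated and 23.9% in naive cells. In tiles with a single CpG it was 4.94 points, at 44.5% and 39.5%, although these started higher.

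The single-CpG tiles held more movement in both directions. Of their 63543 CpGs 10.97% gained, against 9.83% in tiles with 2 CpGs, and 3.35% lost, against 1.17%. They supplied 74.7% of all lost CpGs and 49.2% of all gained CpGs, while holding 19.2% of the CpGs measured. In WT cells single-CpG tiles had the larger mean difference of these 2 classes, 17.2 against 13.9 points.

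Sparse CpGs started higher, so the classes were also compared at equal naive WT level. Among CpGs at 40% to 60% in naive WT cells, the p53-null change was 1.89 points in single-CpG tiles, 4.45 with 2 CpGs, 5.42 with 3 to 4, and 9.17 with 5 to 8. The RA levels of these 4 density classes lay close together, at 63.0%, 63.7%, 63.0% and 62.1%, while the naive p53-null levels were 61.1%, 59.2%, 57.6% and 52.95%. The density classes thus differed more in their naive than in their RA level. At 20% to 40% the values ran 7.67, 10.5, 11.8 and 12.0 points in that order. In WT cells the same 4 classes at 20% to 40% ran 26.0, 26.1, 25.7 and 23.4 points, with the densest class the lowest. At 5% to 20% the change in p53-null cells was 12.0 points for single CpGs, 12.4 with 2 CpGs, 10.9 with 3 to 4, 6.02 with 5 to 8 and 0.730 with 9 or more. At 40% to 60%, single-CpG tiles minus tiles with 3 to 4 CpGs gave -3.53 points by the naive WT level, -6.29 by the RA-treated WT level and -5.91 by their mean.

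**Figure D3:**
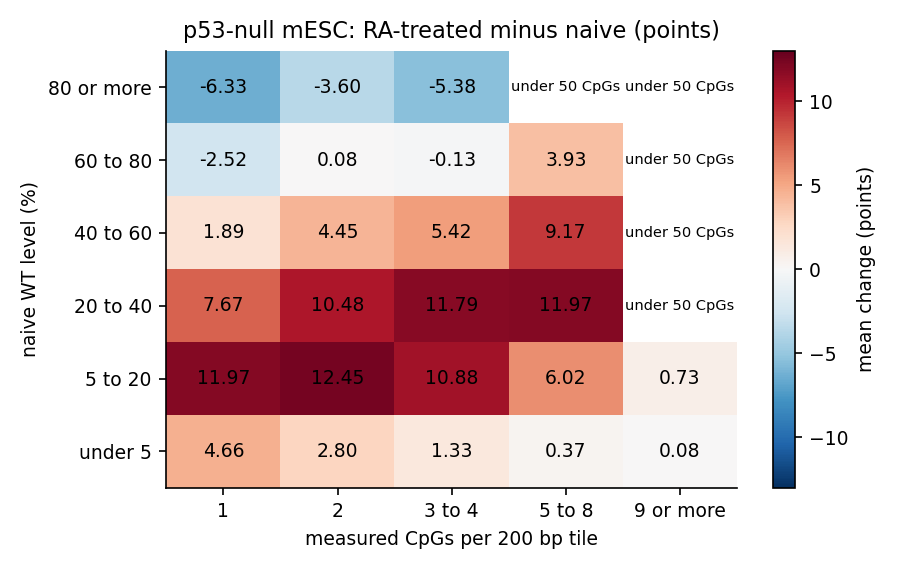
Mean RA-treated minus naive change (points, colour and printed value) in p53-null mESC, by the naive WT level of the CpG (rows, %) and the number of measured CpGs in its 200 bp tile (columns); cells with under 50 CpGs are blank. In the row of 40% to 60% the change goes up with density, 1.89 to 9.17 points, and in the row under 5% it goes down, 4.66 to 0.0845 points.

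Position was first taken as the distance to the nearest tile with 9 or more CpGs. Within 500 bp of such a tile, p53-null cells averaged 0.818% after RA and 0.627% before, 0.192 points apart. At 500 to 2000 bp the difference was 1.28 points, at 2000 to 4000 bp 4.17 points, and at 4000 to 10000 bp 5.51 points. It was 5.33 points at 10000 to 50000 bp, and 3.87 points beyond 50000 bp, where RA-treated cells averaged 28.0% and naive cells 24.1%. With dense tiles of at least 5 CpGs the differences were 0.778 points up to 500 bp, 3.06 at 500 to 2000 bp and 6.74 at 2000 to 4000 bp, and with each tile counting once 0.320 and 2.17 points in the first and second of these. The share of gained CpGs was close in the last 2 classes, 7.54% beyond 50000 bp and 8.40% at 10000 to 50000 bp. The share of lost CpGs was 2.03% beyond 50000 bp and 0.676% at 10000 to 50000 bp.

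The distant CpGs had more losses at equal naive WT level too. Among CpGs at 40% to 60% in naive WT cells, the 16126 beyond 50000 bp averaged 62.1% in RA-treated and 60.3% in naive p53-null cells, 1.80 points apart. The 5348 at 10000 to 50000 bp averaged 65.7% and 59.7%, 6.01 points apart. The naive p53-null levels of these classes were thus close, and the RA level was the lower one in the distant class. Losses made up 5.54% of the distant class and 2.08% of the nearer one. The share was not ordered by distance throughout, since it was 6.67% among the 150 CpGs at 500 to 2000 bp. In WT cells the same classes gained 18.1 and 20.9 points. The distant minus the nearer class gave -4.21 points in p53-null cells here, -5.18 with classes by the RA-treated WT level and -4.71 by the mean of both WT levels. At 60% to 80% in naive WT cells the distant CpGs had -2.85 points and those at 10000 to 50000 bp 1.32 points in p53-null cells, so the lower mean of this level class was that of its 7883 distant members. The median distance to a dense tile was 270160 bp for lost CpGs, against 80097 bp for gained CpGs and 10548 bp for all CpGs.

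**Figure D4:**
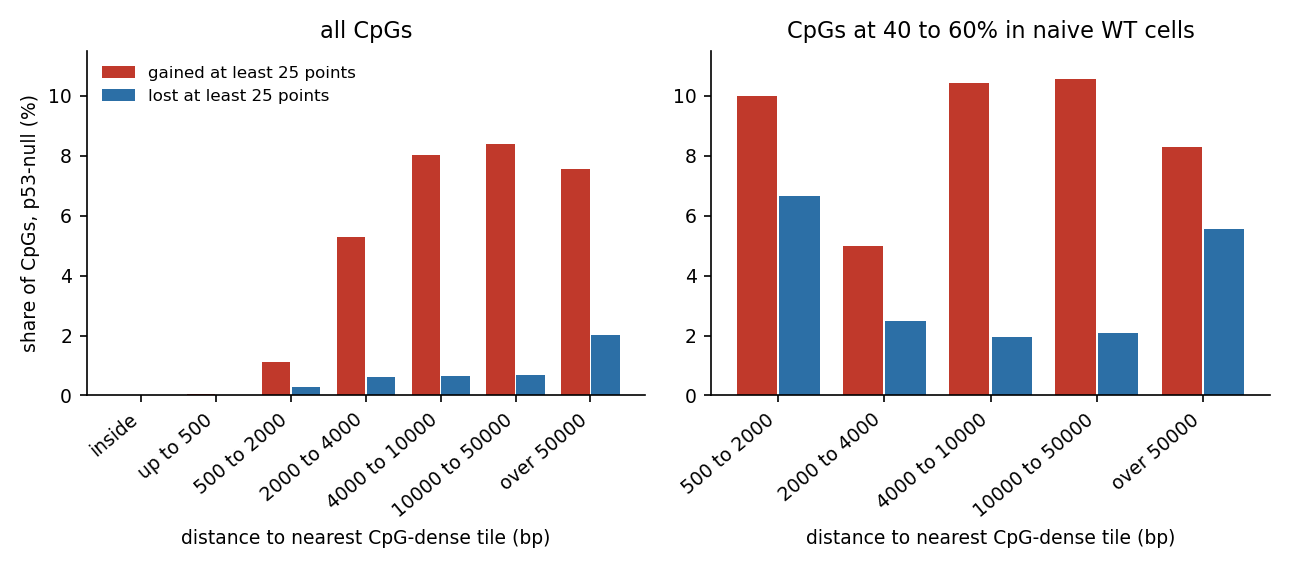
Share of CpGs (%) that gained (red) or lost (blue) at least 25 points in p53-null mESC, by distance to the nearest tile with 9 or more measured CpGs (bp); all CpGs on the left, CpGs at 40% to 60% in naive WT cells on the right, where classes with under 50 CpGs are left out. The blue bar beyond 50000 bp, 2.03% on the left and 5.54% on the right, is above that at 10000 to 50000 bp in both plots.

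Along the chromosomes the mean change was above 0 on each of the 20 chromosomes with at least 1000 CpGs. Chromosome 13 had the highest of these, 16.0% in RA-treated and 12.9% in naive p53-null cells, 3.07 points apart. The X chromosome had the lowest, 14.8% and 13.2%, 1.58 points apart. On the X chromosome 2.28% of the 4946 CpGs lost at least 25 points, against 0.580% to 1.12% on the autosomes, while its share of gains, 4.20%, was within their range of 3.59% to 5.16%. The sex of the p53-null lines is not given in the labels. In WT cells the X chromosome was also the lowest, at 5.10 points. Chromosome 11, which carries the p53 gene in the mouse, had 2.51 points, close to the mean of all CpGs. With each chromosome's measured span cut into 5 equal stretches, the change lay between 2.21 and 2.75 points, highest in the stretch farthest from the first measured CpG.

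In windows of 1 Mb with at least 20 CpGs, RA-treated p53-null cells had the higher mean in 1803 of 2045 windows and the lower mean in 238, with a median change of 2.32 points. WT cells were higher after RA in 2040 windows, with a median of 6.39 points. p53-null cells had the smaller change of both genotypes in 2031 windows. Windows with a lower p53-null mean were mainly CpG-poor. They made up 29.9% of the 422 windows with 20 to under 50 CpGs, 17.02% of those with 50 to under 100, 4.85% of those with 100 to under 200, and 0.694% of the 576 windows with 200 or more. A mean over few CpGs also varies more, and the 5th to 95th percentiles of the change were -4.17 to 9.50 points in the first of these classes and 0.916 to 4.97 points in the last.

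**Figure D5:**
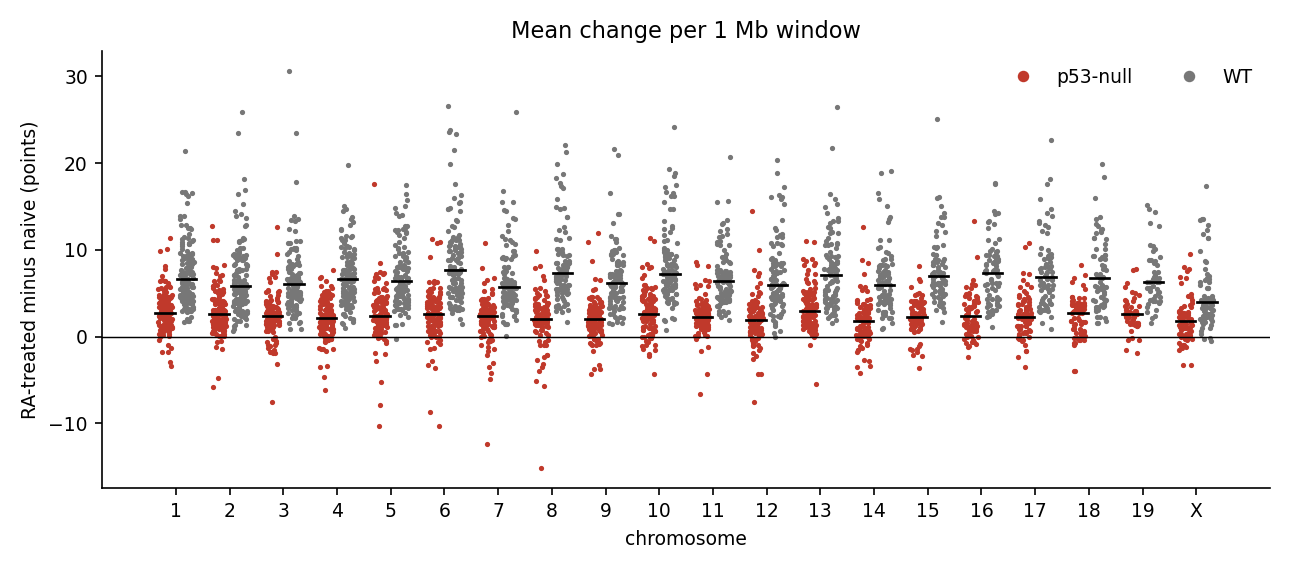
Mean RA-treated minus naive change (points) in 1 Mb windows with at least 20 CpGs, by chromosome, in p53-null (red, left) and WT (grey, right) cells; each point is a window and black lines are medians. Of the p53-null points 238 lie below 0, down to -15.2 points on chromosome 8, against 4 of the WT points.

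The window with the lowest value was on chromosome 8 (mm9, 76000001 to 77000000). Its 20 CpGs averaged 52.9% in RA-treated and 68.05% in naive p53-null cells, -15.2 points, with 18 CpGs lower and 2 higher. WT cells averaged 54.3% there after RA and 47.5% before. Next was chromosome 7 (32000001 to 33000000), 51.1% in RA-treated and 63.4% in naive p53-null cells over 24 CpGs, where WT cells had 47.3% and 45.0%. On chromosome 6 (68000001 to 69000000) the p53-null means were 40.6% and 50.9%. In each of these windows the naive p53-null level stood above the other 3 columns. Ranking by the lowest p53-null change favours a high naive p53-null level. The window with the highest value was on chromosome 5 (82000001 to 83000000), 41.3% in RA-treated and 23.7% in naive p53-null cells over 21 CpGs, 17.6 points apart, close to the 17.4 points of WT cells. The next, on chromosome 12 (44000001 to 45000000), averaged 29.4% and 14.9% over 20 CpGs.

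Windows with a lower mean, 11.6% of all windows, formed runs of at most 3. Of the 238, runs of neighbouring windows numbered 27 with 2 windows and 3 with 3 windows. How many runs this share gives without clustering was not computed, so the counts do not show whether such windows cluster. Of the runs of 3, chromosome 6 (129000001 to 132000000) averaged 21.1% in RA-treated and 24.7% in naive p53-null cells over 121 CpGs, chromosome 5 (41000001 to 44000000) averaged 11.1% and 12.4% over 210, and chromosome 14 (15000001 to 18000000) averaged 15.9% and 16.9% over 191.

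Neighbouring CpGs moved together over short distances. When a CpG gained at least 25 points, the next measured CpG gained as much in 43.0% of 3420 cases if it lay within 50 bp, where 1.68% of all such neighbours did. Beyond that and up to 200 bp it was 32.9% against 5.89%, up to 1000 bp 23.6% against 6.01%, and up to 10000 bp 13.1% against 10.96%. For losses the shares were 21.1% of 279 cases within 50 bp against 0.143%, and 8.91% of 1617 cases beyond 10000 bp against 3.83%. CpGs within 50 bp often share reads, and neighbours share their level and density, so these shares are no measure of independent support.

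Changes that do not rest on a single site were looked for in tiles with at least 4 measured CpGs. Of 26889 such tiles, 171 gained at least 25 points on average (0.636%) and 6 lost as much (0.0223%). In 169 of the 171 and in all 6, every CpG of the tile went the same way. Choosing tiles by a large mean change favours a shared direction, and CpGs of a tile can share reads. The share over all tiles was not computed, so these counts are no independent support. The gained tiles averaged 50.5% in RA-treated and 19.2% in naive p53-null cells. WT cells, which played no part in choosing them, averaged 51.5% after RA and 17.4% before, were higher after RA in 171 of 171 (49.2% of all such tiles), and gained at least 25 points in 141 (2.32% of all such tiles). Most CpGs of such tiles were near 0, so these shares are no background at equal level. In tiles with 3 to 4 CpGs, 34.9% of CpGs at 5% to 20% in naive WT cells gained as much in WT cells. At 20% to 40% it was 54.6%. The share among tiles of equal level was not computed. Single tiles differed between the genotypes more than these means, as values below show. Only 1 of the 171 tiles had 9 or more CpGs.

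The tiles of largest gain were ranked by their mean change, and several are given CpG by CpG. On chromosome 18 (mm9, 69618601 to 69618800) the 4 CpGs were at 80%, 54%, 58% and 70% in RA-treated cells, against 0%, 10%, 11% and 27% in naive p53-null cells. On chromosome 3 (97554601 to 97554800) they were at 74%, 85%, 74% and 57%, against 26%, 18%, 13% and 19% in naive p53-null cells. WT means at this tile were 72.2% after RA and 17.8% before. The third, on chromosome 4 (126676801 to 126677000), had 63%, 67%, 65% and 80% in RA-treated cells, against 17%, 22%, 9% and 17% in naive p53-null cells. The changes of single CpGs ran from 43 to 80, 38 to 67 and 45 to 63 points in these 3 tiles. Their RA-treated and naive ranges did not overlap, which the ranking by mean gain favours. Chromosome 1 (10284801 to 10285000) had a mean of 53.5% in RA-treated and 5.50% in naive p53-null cells, against 44.5% and 8.50% in WT cells. On chromosome 11 (3765801 to 3766000) p53-null cells averaged 59.2% and 13.2% and WT cells 28.5% and 6.50%, so the p53-null gain of 46.0 points stood above the WT gain of 22.0 points. A tile of 6 CpGs on chromosome 15 (88543001 to 88543200) had 37%, 34%, 46%, 59%, 44% and 67% in RA-treated cells, against 6%, 6%, 7%, 6%, 6% and 2% in naive p53-null cells.

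The 6 lost tiles averaged 60.2% in RA-treated and 85.7% in naive p53-null cells. WT cells averaged 61.8% after RA and 61.1% before, and were higher after RA in 3 and lower in 3. On chromosome 15 (71429601 to 71429800) the 5 CpGs were at 79%, 82%, 43%, 47% and 50% in RA-treated cells, against 100%, 91%, 76%, 74% and 92% in naive p53-null cells. Another tile of that chromosome (96725201 to 96725400) had 73%, 64%, 56% and 71%, against 100%, 90%, 86% and 91% in naive p53-null cells. WT cells averaged 71.0% there after RA and 65.2% before. On chromosome 4 (88378201 to 88378400) the p53-null CpGs were at 46%, 57%, 53% and 72% after RA and at 92%, 83%, 60% and 96% before, and WT means were 51.5% and 64.5%. On chromosome 1 (191579001 to 191579200) the CpGs were at 50%, 57%, 47% and 29% after RA and at 96%, 78%, 61% and 49% before, where WT means were 39.2% and 20.5%. In the second tile of chromosome 15 the states did not overlap, and in the other 3 described here they did. All 6 tiles lay over 50000 bp from a dense tile. Most highly methylated CpGs did so too: 1386 of 1734 at 80% or more in naive WT cells, and 7883 of 10721 at 60% to 80%. The share among tiles of equal level was not computed.

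Over all CpGs, gained and lost sites differed in how WT cells stood. Gained CpGs had medians of 57% in RA-treated and 22% in naive p53-null cells, and WT medians of 57% and 21%. WT cells were higher after RA at 13890 of these 14166 CpGs (98.1%, against 40.5% of all CpGs, most of which were at or near 0), and gained at least 25 points at 9892, which is 69.8% of the p53-null list and 25.6% of the WT list, against 11.7% of all CpGs. Lost CpGs had medians of 45% in RA-treated and 78% in naive p53-null cells, and WT medians of 57% and 48%. WT cells were higher after RA at 1925 of these 2854 CpGs (67.4%), and lost at least 25 points at 67, which is 2.35% of the p53-null list and 30.7% of the 218 WT losses, against 0.066% of all CpGs. At lost CpGs the naive p53-null column stood far above the other 3. These CpGs were chosen by high naive and low RA values in p53-null cells, so both p53-null levels describe the choice. Across all 330387 CpGs the changes of both genotypes had a Pearson correlation of 0.501, and 0.439 over the 107163 CpGs with at least 5% in naive cells of either genotype; CpGs are not independent, and levels and density are shared.

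At the single CpGs of largest gain WT cells went the same way, and at those of largest loss they went either way. The 10 of largest gain differed by 71 to 86 points, and WT cells were also higher after RA at 10 of 10. The largest, on chromosome 4 (126893726 to 126893727), was at 92% in RA-treated and 6% in naive p53-null cells, with 63% and 19% in WT cells. Another on that chromosome (56869657 to 56869658) was at 83% and 0%, with 50% and 0% in WT cells. The third was a CpG on chromosome 18 (69618616 to 69618617, 80% in RA-treated and 0% in naive p53-null cells), part of the tile given above. The next was on chromosome 15 (78723998 to 78723999), at 100% in RA-treated and 22% in naive p53-null cells, with 89% and 39% in WT cells. A CpG on chromosome 7 (89409353 to 89409354) was at 77% and 0%, with 70% and 0% in WT cells. The 10 of largest loss differed by -61 to -76 points, and WT cells were higher after RA at 4, against 67.4% of all lost CpGs. With 10 CpGs this does not set the largest losses apart from the list. All 10 of these losses were the only measured CpG of their tile, as were 74.7% of all lost CpGs. Of the 10 gains 5 were, against 49.2% of all gained CpGs. The largest, on chromosome 7 (7478701 to 7478702), was at 15% in RA-treated and 91% in naive p53-null cells, where WT cells had 18% and 20%. The second, on chromosome 13 (60599119 to 60599120), was at 13% in RA-treated and 84% in naive p53-null cells, and also lower after RA in WT cells, at 12% against 54%. The third, on chromosome 9 (20039957 to 20039958), was at 23% after RA and 94% before, where WT cells had 44% and 13%. The fourth, on chromosome 14 (7477371 to 7477372), was at 35% and 100%, with 71% and 88% in WT cells. The fifth, on chromosome 4 (143190033 to 143190034), was at 25% and 90%, with 35% and 63% in WT cells. The sixth, on chromosome 16 (79920514 to 79920515), was at 17% and 81%, where WT cells had 60% and 33%. With no depth given, single CpGs of this size may rest on few reads.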

How the data were processed

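RRBS libraries of RA-treated and naive p53-null and WT mESC were analysed. The submitters' processing notes name Trim Galore, BSMAP, methylKit and the build mm9; roles, versions and coverage filters, and how libraries were pooled, are not stated there. The deposited table holds whole percent values at 330387 CpGs. Its 4 columns of total methylation, with genotype and state in their names, were taken as the pooled RRBS groups. Another 4 columns, whose suffix no label defines, entered no comparison. They exceeded total methylation of the same group at 0 of 330387 CpGs in all 4 pairs, and whether CpGs were selected on these values is not stated. The tile table names no cell state and was not used.

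Differences are RA-treated minus naive, each CpG counting once. Classes, tiles (200 bp, starting at multiples), distances and 1 Mb windows were computed with Python 3.11.15, numpy 2.4.6 and pandas 2.3.3; level classes hold their lower limit. Counting and distances were tested on simulated data. The planned models of single libraries were not run, since the table has 1 pooled column per group. Named sites were the largest mean changes of tiles with at least 4 CpGs (1 per 10000 bp), single CpGs (1 per 1000 bp), windows and chromosomes. The members, classes and rules were chosen with earlier results of these data known. Coordinates are mm9 and count from 1; the gene tables at hand are on another build, so no gene was assigned and no sequence is printed.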

Additional observations from a re-analysis of the deposited data

Results flagged for a closer look

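In 2 results the genotypes changed in opposite directions. At CpGs at 60% to 80% in naive WT cells the mean change was -1.78 points in p53-null and 8.55 points in WT cells, -10.3 points apart. By the RA-treated WT level both genotypes were higher after RA in this class, by 6.92 points in p53-null and 24.9 points in WT cells. In 236 of 2045 windows of 1 Mb the mean after RA was lower in p53-null and higher in WT cells. WT cells were higher in 2040 of all 2045 windows, so nearly any of the 238 windows lower in p53-null cells would be counted. With 1 pooled value per group, neither difference was tested.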

How the results depend on the processing

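No paired analysis was possible because each group is 1 pooled column and replicates carry no numbers there; for the same reason no library could be left out. Of 93 alternative values for 28 results, 49 moved as defined below, 39 stayed the same and 5 reversed in direction. The 88 that kept their direction include counts, which cannot reverse. At 60% to 80% the change was 1.24 points by the mean of both p53-null columns, 1.97 by the other CpGs of the tile, 6.92 by the RA-treated WT level and 1.91 by the mean of both WT levels, against -2.97. At 80% or more it was 5.26 by the RA-treated WT level, against -13.3. Classes by the RA-treated WT level and by the mean of both WT levels were chosen after seeing the data. As no replicate spread exists, a value was taken to have moved when it differed by more than its SD over chromosomes, or a count by over 1.5 times. The mean change moved to 4.21 points with each tile counting once, 4.49 over CpGs above 0 in either state and 6.28 without CpGs at exactly 0 or 100. Gained CpGs numbered 46536 and lost 14741 at 10 points, 685 and 71 at 50 points, and 9070 tiles gained with each tile counting once. At 20% to 40% the change was 9.19 points by the naive WT level, 9.38 by the RA-treated WT level and 12.1 by their mean. At 80% or more it was -5.82 by the naive WT level, -2.31 by the mean of both WT levels, -3.24 by the mean of both p53-null columns and -5.24 by the other CpGs of the tile. Beyond 50000 bp it was 4.73 points with dense tiles of at least 5 CpGs. Windows of 2 Mb gave 1077 higher and 168 lower, and a minimum of 50 CpGs 1509 higher and 112 lower windows. Both settings leave fewer windows in all, so these counts are not parts of the same total. Tiles with at least 3 CpGs gave 581 gained and 22 lost, and with at least 6 CpGs 17 and 0. The p53-null change minus the WT change was -8.31 points with each tile counting once. The cause was not tested. Changes of single CpGs are limited by unknown depth.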
